A study of Gasterosteus aculeatus with 12 samples.

Results

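Kidneys of threespine stickleback from a freshwater population were compared after acclimation at 11 g/L salinity (the treatment FW11K) and at 33 g/L (FW33K). The comparison takes 6 of the 12 libraries of the series, 3 for each treatment, and describes the change across genes, with and without a rescaling of the libraries. Every fish was an adult female that had spent 30 days in water made up with synthetic sea salt, and RNA came from the kidneys. The same population at 0 g/L (FW00K) and a saltwater population at 33 g/L (SW33K) had 3 libraries each. These entered the gene filter, the rescaling, the shared estimate of spread and, for FW00K, the step from 0 to 11 g/L. Some of their values are also given beside those of FW11K and FW33K. Each library is 1 column of FPKM, the number of fragments relative to transcript length and to all mapped fragments, for 20860 genes. Tests covered 15503 genes, those whose average across all 12 libraries reached 1 FPKM. FPKM holds no read counts, so the reads behind each gene's value are not known here. The supplement of the study lists far fewer mapped-library reads for replicate 1 than for replicates 2 and 3 in both FW11K and FW33K. Genes at 0 FPKM numbered 2375 in FW11K replicate 1 against 1564 and 1424 in replicates 2 and 3. In FW33K they numbered 3216 against 2301 and 2166. The part of depth in the differences of replicate 1 was not tested. The gene models are those of the BROADS1 assembly, whose positions were not used.

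Water of 11 g/L is close to the salt concentration of fish blood, so a fish there gains and loses little water by osmosis, whereas at 33 g/L it loses water and takes up salt. In freshwater the teleost kidney makes a large volume of dilute urine, and in seawater it makes little urine and excretes mainly divalent ions such as magnesium and sulfate. The teleost kidney also holds blood-forming tissue between its tubules, which makes red cells, granulocytes and lymphocytes. Kidney RNA therefore mixes that of nephron and blood cells, and in such bulk samples fewer cells of a type cannot be told apart from less RNA per cell.

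The libraries of a treatment were not equally far apart. Replicates 2 and 3 were nearly the same in both treatments, with a Pearson r across genes of 0.992 at 11 g/L and 0.991 at 33 g/L, and at 10 to 30 FPKM they differed by a median of 0.0586 at 11 g/L and 0.0555 at 33 g/L on the log2 scale. Replicate 1 differed from them by 0.348 to 0.576 in the same range. The methods of the study give 3 individual fish per treatment as biological replicates, while the labels do not say which fish a library came from. Because replicates 2 and 3 were so close, they were counted as 1 sample in every mean ± SD, so that n = 2 for each treatment, and the tests were run both with all 12 libraries and with these replicates averaged. The adjusted p-values and standard errors (SE) of the 12-library test measure the spread between libraries. Both are too small if replicates 2 and 3 are not separate fish. Every SE below comes from that test. FW11K replicate 1 stood apart. Its r was 0.865 and 0.873 with the other FW11K libraries and 0.892 to 0.898 with the 3 FW33K libraries. With the FW00K libraries it was 0.828, 0.893 and 0.900, and with the SW33K libraries 0.874 to 0.892, so the closeness was not particular to FW33K. The effect of FW11K replicate 1 on the calls is given beside the results.

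The kidney was present in every library by its markers. *NPHS1*, which encodes the slit-diaphragm protein nephrin, was at 9.39 to 12.0 FPKM in FW11K and at 3.46 to 3.81 FPKM in FW33K. The proximal phosphate transporter *SLC34A1* was at 16.7 to 23.3 and 3.10 to 5.03 FPKM. The makeup of the libraries differed between the treatments. The 20 most abundant genes took 18.0 to 19.8% of all FPKM in FW11K and 28.1 to 41.8% in FW33K, and the median gene stood at 10.3 to 11.8 FPKM in FW11K and at 4.39 to 6.75 FPKM in FW33K. The FPKM of all genes summed to 915599 to 948341 in FW11K and to 565518 to 684892 in FW33K. Because these totals and shares differed between the treatments, every test was run on the deposited values and after median-ratio scaling. In that scaling a library's values are divided by the median, over genes, of their ratios to the gene's geometric mean in the 12 libraries. FPKM of single libraries and summed FPKM are deposited values throughout. The factors were 1.09 to 1.23 in FW11K and 0.465 to 0.702 in FW33K.

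With every library counted as a separate sample, kidneys at 33 g/L differed from kidneys at 11 g/L in a large share of genes. The large share did not hold with the near-identical replicates averaged. At an adjusted p under 0.01 in limma's test, averaging left 49 genes on deposited values and 1 after scaling. In the test of all libraries the direction depended on the scale. On deposited values 3898 genes (25.1% of those tested) passed limma's test at a Benjamini-Hochberg adjusted p under 0.01, of which 278 (1.79%) were higher at 33 g/L and 3620 (23.4%) lower. The median gene changed by -0.82 on the log2(FPKM + 1) scale, with quartiles at -1.30 and -0.35. After scaling the median was -0.04, with quartiles at -0.52 and 0.44, and 2253 genes (14.5%) passed, 1362 (8.79%) higher and 891 (5.75%) lower. On both scales 275 genes (1.77%) were higher and 891 (5.75%) lower. No gene passed in opposite directions on the 2 scales. Scaling removed the call of 2729 genes that were lower on deposited values, and 1087 genes were higher only after it. The gene groups below are counted on both scales, and a gene is said to have risen or fallen only where it passed on both. These words refer to the test of all libraries, which counts the near-identical replicates as separate samples.

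**Figure D1:**
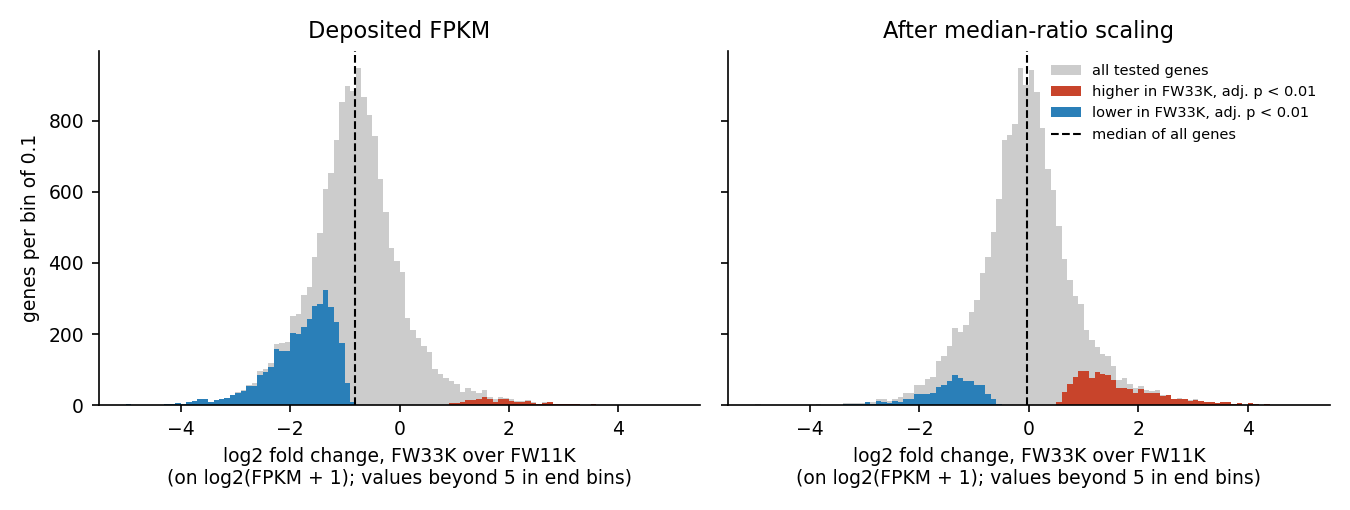
Histograms of the log2 change from FW11K to FW33K for the 15503 genes tested, on deposited values (left) and after median-ratio scaling (right), in bins of 0.1 on the log2(FPKM + 1) scale. Colored bars are genes past adjusted p under 0.01 and the dashed line is the median of all genes, which lies at -0.82 on the left and at -0.04 on the right.

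The number of calls rested on how the near-identical replicates were treated. With replicates 2 and 3 averaged, 49 genes passed on deposited values and 1, which was higher, after scaling (0.00645%). The 49 were 24 higher (0.155%) and 25 lower genes (0.161%). At an unadjusted p under 0.05 there were 4810 and 2873. At a looser adjusted p under 0.05 the averaged test gave 96 higher (0.619%) and 839 lower genes (5.41%) on deposited values, and 55 higher (0.355%) and 4 lower genes (0.0258%) after scaling. Of these, 35 higher and 4 lower genes passed on both scales and were all among the 275 and 891 as well. Without FW11K replicate 1 the 12-library test gave 505 higher and 2619 lower genes on both scales, which included 264 of the 275 and 871 of the 891. Without FW11K replicate 2 or 3 the calls fell to 1067 and 1059 on deposited values and to 792 in each case after scaling. An exact permutation test of 3 libraries against 3 cannot give a two-sided p below 0.1. The change computed from replicate 1 alone had the same sign as that from replicates 2 and 3 in 81.8% of all tested genes on deposited values and in 69.1% after scaling. Among the called genes it had the same sign after scaling in 275 of 275 and in 890 of 891, which the way they were chosen brings about. On scaled values FW11K replicate 1 exceeded both its fellows in 216 of the 275 genes that rose, 112 of the 891 that fell and 7007 of all 15503. It lay below both in 48, 752 and 7619. It was therefore on the FW33K side of them in most called genes, whose calls used these same libraries.

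Gene symbols were taken only from the supplementary table of salt-responsive genes in the study, which gave a symbol to 1326 of the tested genes. Each list below therefore counts only the members named there, and other members may be among the genes without a symbol. For example, 27 genes were counted for a list of 40 chaperone symbols and 8 for a list of 24 myeloid symbols. That table was selected on these same libraries, so a list made of its genes is not independent evidence of a direction, and each list below should be read against the 1326: of these, 204 (15.4%) rose and 124 (9.35%) fell on both scales. After scaling 587 (44.3%) of them were higher, and on deposited values 205 (15.5%) were higher and 247 (18.6%) lower. Their median log2 change was -0.04 deposited and 0.86 scaled, against -0.82 and -0.04 for all genes. On both scales 311 of them rose and 174 fell without FW11K replicate 1. In the test with replicates 2 and 3 averaged, at an adjusted p under 0.05, 66 of them were higher and 119 lower on deposited values. After scaling 47 were higher and 2 lower in that test. Among the 14177 tested genes without a symbol, 71 (0.501%) rose and 767 (5.41%) fell. A label such as "2 of 2" after a symbol is the number that the annotation gives to a copy, and copies can share reads.

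The steepest rise among genes with a symbol was that of *HAS2* (ENSGACG00000005603), the plasma-membrane enzyme that makes hyaluronan, the large water-binding sugar polymer of the extracellular matrix. It was at 1.55, 2.90 and 2.27 FPKM in FW11K and at 273, 646 and 602 FPKM in FW33K. Expressed as means, this was 2.07 ± 0.733 against 448 ± 248 FPKM (SD, n = 2), a ratio of 217. The log2 change was 7.22 ± 0.50 (SE) on deposited values and 8.12 ± 0.62 after scaling, with limma adjusted p of 1.4e-05 and 4.18e-05. With replicates 2 and 3 averaged, the adjusted p was 5.15e-05 and 0.02001. *PI16* (ENSGACG00000000511), a secreted peptidase inhibitor, was at 0.357, 2.91 and 2.12 FPKM in FW11K and at 203, 181 and 194 FPKM in FW33K. Its ratio was 136, and its scaled adjusted p of 0.00231 became as much as 0.0106 without FW11K replicate 3 or FW33K replicate 3. *BEST3* (ENSGACG00000014663), of the bestrophin family of anion channels, went from 6.79, 2.68 and 3.07 to 108, 229 and 225 FPKM. In all 3 of these genes every FW33K library lay far above every FW11K library. No overlap of the libraries was a condition for naming the genes with the largest changes, so the separation itself was set by the choice.

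Other large rises were spread over signaling, transport and secretion. *TNK2* (2 of 2), a non-receptor tyrosine kinase, was at 0.146 to 0.321 FPKM in FW11K and at 18.3, 71.3 and 69.5 FPKM in FW33K, a scaled log2 change of 6.02 ± 0.71. The sodium-coupled monocarboxylate transporter *SLC5A8* was at 1.52, 0.0772 and 0.0687 against 19.5, 40.3 and 37.1 FPKM, and the mitochondrial carrier *SLC25A48* at 2.42 to 3.18 against 64.7 to 88.6 FPKM. Both are carriers of small metabolites across membranes. *CTSE*, the aspartic protease cathepsin E, was at 0.384 to 0.441 against 19.5 to 31.8 FPKM. *SERPINI1*, the serine protease inhibitor neuroserpin, was at 28.0, 8.53 and 9.50 against 168, 293 and 281 FPKM. *RAB26* (2 of 2), a small GTPase of secretory granules, was at 24.1, 6.57 and 7.14 against 117, 242 and 233 FPKM. For *SERPINI1*, *RAB26* and *SLC5A8*, FW11K replicate 1 was the highest of its treatment and, as the choice required, below every FW33K library. *TECPR2*, which takes part in autophagy and in export from the endoplasmic reticulum, had even FW11K values of 15.4, 14.6 and 14.7 FPKM, against 117, 338 and 330 FPKM. Its scaled log2 change of 4.85 ± 0.25 kept an adjusted p of 0.0156 with replicates 2 and 3 averaged. *EMB*, the cell-surface glycoprotein embigin, was at 2.65, 0.512 and 0.496 against 23.9, 34.4 and 32.2 FPKM, and its scaled adjusted p rose to as much as 0.0125 when replicate 2 or 3 of either treatment was left out.

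**Figure D2:**
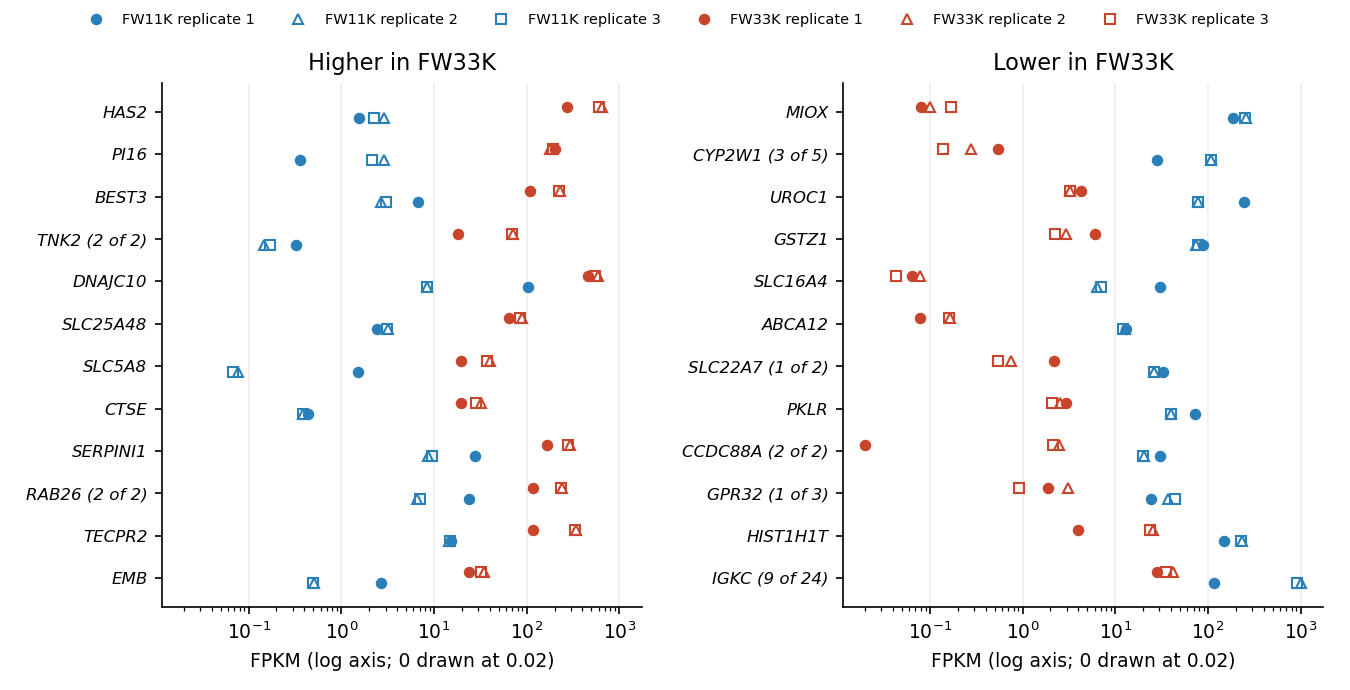
Deposited FPKM, on a log axis with 0 drawn at 0.02, of the 12 genes with a symbol that rose most and the 12 that fell most, in each FW11K and FW33K library. Filled circles are replicate 1, open triangles replicate 2 and open squares replicate 3. For each gene the 3 libraries of one treatment lie on 1 side of the other 3, which was a condition of the choice.

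The most abundant genes at 33 g/L carried no symbol. ENSGACG00000019061 was at 767, 26.1 and 39.7 FPKM in FW11K and at 62488, 42149 and 44353 FPKM in FW33K, and ENSGACG00000019037 was at 771, 21.8 and 35.4 against 57522, 34929 and 41878 FPKM. The next, ENSGACG00000019053, was at 20.7, 7.30 and 11.5 against 30038, 14276 and 14606 FPKM, which made it the unnamed gene with the largest rise (scaled log2 change 11.41 ± 1.36). ENSGACG00000019063 was at 214, 7.41 and 9.91 against 20490, 12713 and 14360 FPKM. In 3 of these 4 genes FW11K replicate 1 was over 10 times above the other FW11K libraries and far below FW33K. All 4 passed on both scales, with scaled adjusted p of 0.000379 to 0.0012. The 3 most abundant genes at 11 g/L did not pass on either scale. ENSGACG00000013895, for example, was at 11766, 15712 and 16100 FPKM in FW11K and at 354, 6608 and 5487 FPKM in FW33K, with adjusted p of 0.0216 and 0.126, and its FW33K values were themselves 18.7-fold apart.

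Chaperones and disulfide isomerases of the endoplasmic reticulum, the compartment where secreted and membrane proteins fold, formed the list with the most rising members. The list holds 40 symbols, of which 27 could be counted. Of these 27 members 13 rose and none fell on both scales, and 22 were higher after scaling. The median log2 change was 1.52 on deposited values and 2.50 after scaling, beside -0.04 and 0.86 for all genes with a symbol and -0.82 and -0.04 for all genes tested. The rise was present in replicate 1, with a scaled median of 1.94, and in replicates 2 and 3, with 3.01, where all genes with a symbol had 0.54 and 0.97. Without FW11K replicate 1 there were 16 rising members. With replicates 2 and 3 averaged, 7 members on deposited values and 1 after scaling passed an adjusted p under 0.05. Among the 1326 genes with a symbol 66 and 47 were higher in that test.

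The steepest member was *DNAJC10*, a reductase that opens wrong disulfide bonds, at 104, 8.35 and 8.50 FPKM in FW11K and 456, 581 and 550 FPKM in FW33K. Its FW11K replicate 1 lay 12.3-fold above the mean of replicates 2 and 3 and still 4.39-fold below the lowest FW33K library. The disulfide isomerase *PDIA4* was more even, at 78.5, 59.6 and 57.0 against 633, 534 and 506 FPKM, or 68.4 ± 14.3 against 577 ± 79.7 FPKM (SD, n = 2). Its log2 change was 3.09 ± 0.31 on deposited values and 4.06 ± 0.46 after scaling, with adjusted p of 0.000117 and 0.000299 (0.0157 and 0.0535 with replicates averaged). *HSP90B1* and *HSPA5* encode the main chaperones of the compartment, GRP94 and BiP. *HSP90B1* was at 214, 142 and 142 against 738, 997 and 953 FPKM. *HSPA5* was at 139, 175 and 181 against 368, 818 and 780 FPKM. The prolyl isomerase *PPIB* was at 467, 192 and 183 against 1230, 2356 and 2236 FPKM. For *PDIA3*, the isomerase that serves glycoproteins, FW11K replicate 1 at 1081 FPKM stood well above replicates 2 and 3 at 263 and 267, and the 3 FW33K libraries were at 1884 to 1993 FPKM. The other members that rose were *P4HB*, *PDIA6*, *TXNDC12*, *DNAJC3*, *MANF*, *CRELD2* and *FKBP11*. *TXNDC5*, *PDIA5*, *UGGT2*, *CALR* and *PDIA2* did not pass on either scale. A gene labelled *CALR3* (1 of 2), a copy of the calreticulin family that was placed in the antigen presentation list, rose from 181, 204 and 213 to 1099, 966 and 936 FPKM, while *CALR3* (2 of 2) was at 295 to 410 and 221 to 404 FPKM and did not pass.

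**Figure D3:**
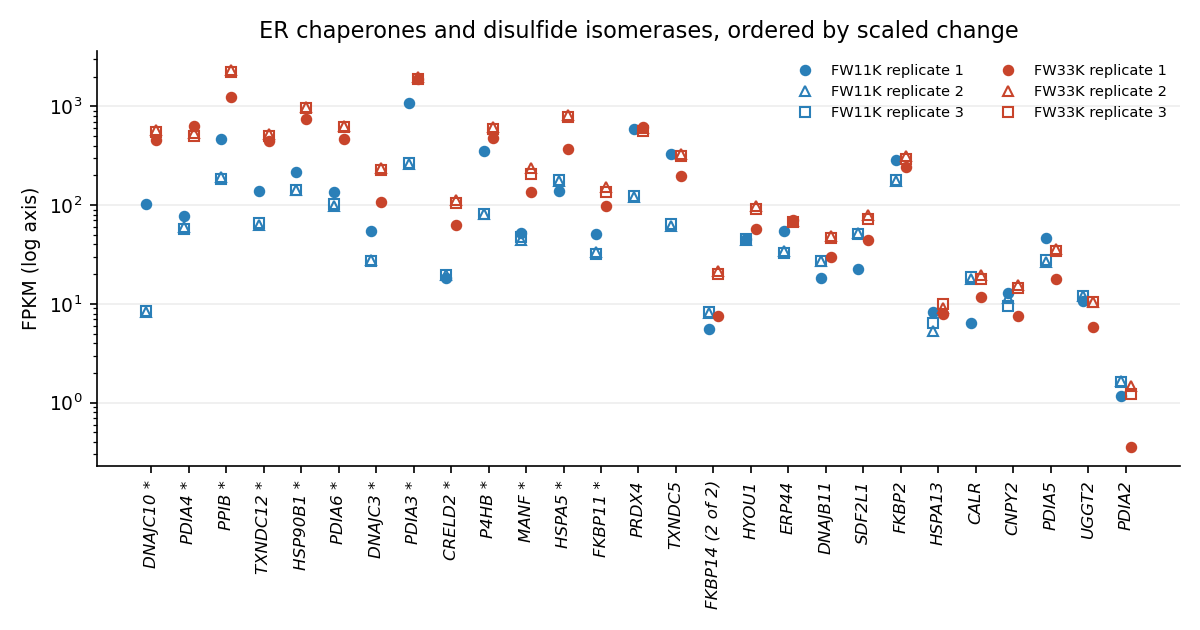
Deposited FPKM of the 27 chaperones and disulfide isomerases of the endoplasmic reticulum in each library (log axis), ordered by the scaled change, with filled circles for replicate 1 and open symbols for replicates 2 and 3. An asterisk marks the 13 genes that rose on both scales.

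The other steps of the secretory route moved mainly on the scaled values. In mucin-type O-glycosylation and nucleotide sugar supply 8 of 23 members rose on both scales, 19 were higher after scaling, and the median log2 change was 0.98 deposited and 1.69 scaled. Leaving out FW11K replicate 1 gave 9 rises. Its steepest members were polypeptide N-acetylgalactosaminyltransferases, which attach the initial sugar of mucin chains. *GALNT8* (2 of 2) was at 0.0511, 0.278 and 0.438 against 8.08, 18.5 and 17.3 FPKM. *GALNT10* (1 of 2) was at 4.504, 7.14 and 6.81 against 36.7, 72.9 and 75.2 FPKM. Both genes also passed an adjusted p under 0.05 on both scales with replicates averaged (scaled 0.0360 and 0.0437). *GALNT6*, *GALNT10* (2 of 2), the sialyltransferase *ST3GAL1* (1 of 8), the nucleotide sugar transporters *SLC35A3* (2 of 2) and *SLC35B1*, and *GFPT2*, which makes the precursor of amino sugars, rose as well.

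Protein disposal from the endoplasmic reticulum gave 5 of 12 rising members on both scales and 12 of 12 after scaling, with medians of 0.99 and 1.95. On both scales 6 rose without FW11K replicate 1. Averaging replicates 2 and 3 left 1 member higher at an adjusted p under 0.05 on deposited values and none after scaling. *ERLEC1*, a lectin that binds misfolded glycoproteins, was at 123, 37.6 and 40.8 against 382, 484 and 467 FPKM. *OS9*, another such lectin, *EDEM3*, a mannosidase, *SEL1L*, part of the export complex, and *RNF103*, a ubiquitin ligase, were the others that rose. *RNF103* was at 47.3, 11.4 and 11.6 against 54.3, 70.1 and 67.7 FPKM, so that FW11K replicate 1 nearly reached FW33K, and its adjusted p went as high as 0.0426 deposited and 0.0113 scaled when 1 library was left out. Among regulators of the unfolded protein response, the signaling route that raises folding capacity, 2 of 6 rose on both scales and 5 were higher after scaling. *EIF2AK3*, the sensor kinase PERK, was at 8.84, 5.33 and 6.03 against 14.7, 19.3 and 18.9 FPKM. *BHLHA15*, a transcription factor of secretory cells also called MIST1, was at 10.1, 1.12 and 1.13 against 13.5, 25.4 and 24.9 FPKM. Both lost the deposited call in some fits that left out a FW11K or FW33K library, with adjusted p up to 0.0158 and 0.0195. *XBP1*, the transcription factor that drives expansion of the compartment, was at 627, 77.2 and 79.0 against 861, 710 and 669 FPKM, with adjusted p of 0.013 deposited and 0.0069 scaled. Without FW11K replicate 1 all 6 regulators passed on both scales. None passed an adjusted p under 0.05 on either scale with replicates averaged.

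Entry into the endoplasmic reticulum, N-glycosylation and vesicle coats gave few calls on both scales. Among all genes with a symbol 15.4% rose on both scales and 44.3% were higher after scaling, and the shares rising on both scales in these lists were below that. In the translocation list 3 of 31 members rose, both copies of *SEC61A1*, which forms the protein channel, and *SEC62*, and 24 were higher after scaling. That list holds 11 copies of *SSR1*, so it has only 20 distinct symbols. *SEC61A1* (1 of 2) was at 182, 56.9 and 58.6 against 209, 330 and 311 FPKM, and *SEC61A1* (2 of 2) at 217, 74.4 and 79.3 against 232, 338 and 342 FPKM. For both copies FW11K replicate 1 came close to FW33K replicate 1, and their deposited adjusted p of 0.00606 and 0.0094 rose to 0.0341 and 0.0501 when 1 library was left out. In N-glycosylation 1 of 19 rose, *TUSC3*, a subunit of the oligosaccharyltransferase, and 10 were higher after scaling. Of 26 genes of the COPI and COPII coats and their cargo receptors 2 rose, *SURF4* and *KDELR2* (2 of 2), the latter a receptor that returns chaperones to the endoplasmic reticulum, and 21 were higher after scaling. On deposited values these calls were also lost in several fits that left out 1 library, 4 for *SURF4*, 6 for *KDELR2* and 3 for *TUSC3*. The adjusted p went up to 0.0276, 0.0344 and 0.0157. In all of these lists no member fell on both scales. On deposited values the translocation, N-glycosylation and coat medians were -0.24, -0.46 and -0.27 from replicate 1. From replicates 2 and 3 they were 0.96, 0.97 and 0.75. All genes with a symbol had -0.55 and 0.18. Only 7 of 31, 2 of 19 and 6 of 26 members were higher on deposited values in replicate 1 and in replicates 2 and 3 alike. Without FW11K replicate 1, 7 members of the translocation list, 7 of N-glycosylation and 8 of the coats rose, and *TMED6* fell. No member of these lists passed an adjusted p under 0.05 on either scale with replicates averaged.

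The steepest fall was that of *MIOX* (ENSGACG00000012900), myo-inositol oxygenase, which opens the ring of myo-inositol, an organic osmolyte of kidney cells, and so begins its breakdown. It was at 184, 258 and 254 FPKM in FW11K and at 0.0812, 0.0993 and 0.167 FPKM in FW33K. The means were 220 ± 50.6 and 0.107 ± 0.0368 FPKM (SD, n = 2), a ratio of 2053. On the log2(FPKM + 1) scale, which understates changes that reach such low values, the change was -7.69 ± 0.48 deposited and -7.36 ± 0.41 scaled, with limma adjusted p of 1.3e-05 and 5.76e-06 (3.68e-05 and 0.0140 with replicates averaged). *ABCA12*, an ABC transporter of lipids, was nearly as sharp, at 13.1, 12.6 and 12.0 against 0.0792, 0.165 and 0.160 FPKM, and it kept a scaled adjusted p of 0.0160 with replicates averaged. *SLC16A4*, a member of the monocarboxylate transporter family, was at 30.7, 6.36 and 6.94 against 0.0436 to 0.0777 FPKM. Its calls did not hold when any of the 6 libraries was left out, with adjusted p up to 0.0189 deposited and 0.0262 scaled. Both were also lost with no filter on low values, under quantile normalization and under scaling to the FPKM sum without the 100 most abundant genes. The replicate number as a block took away the scaled call only, with an adjusted p of 0.0171.

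Among enzymes of amino acid and peroxisomal breakdown, many of which are abundant in proximal tubule cells, the calls on both scales were falls. Of 22 members 6 fell and none rose on both scales, and the median log2 change was -1.56 deposited and -0.78 scaled. The falls numbered 5 without FW11K replicate 1 and also with the replicate number as a block. With replicates averaged, 9 members were lower at an adjusted p under 0.05 on deposited values and none after scaling. *UROC1*, urocanase of histidine breakdown, was at 248, 78.7 and 78.0 against 4.23, 3.27 and 3.21 FPKM. *GSTZ1*, of tyrosine breakdown, was at 89.2, 75.2 and 77.7 against 6.07, 2.96 and 2.25 FPKM. For both, the lowest FW11K library was over 10 times above the highest FW33K library. *PIPOX* (L-pipecolate oxidase), *HAAO* (of the kynurenine route), *HAO1* (glycolate oxidase) and *PRODH2* (hydroxyproline dehydrogenase) were the other members that fell. *AGXT* (2 of 2), which converts glyoxylate to glycine, was at 1306, 392 and 399 against 119, 85.97 and 79.0 FPKM and passed on deposited values only (adjusted p of 0.0048 and 0.039). *IVD*, of leucine breakdown, and *PEX19*, of peroxisome assembly, were higher after scaling only. Pyruvate kinase *PKLR* fell from 73.3, 40.2 and 40.2 to 2.91, 2.53 and 2.10 FPKM. *CYP2W1* (3 of 5), a cytochrome P450, fell from 28.3, 107 and 107 to 0.539, 0.275 and 0.139 FPKM.

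Of 10 proximal tubule markers 3 fell, 1 rose and the rest did not pass on both scales, with medians of -1.95 and -1.04. There were 2 falls and 1 rise without FW11K replicate 1 and also with the replicate block. Besides *MIOX*, these were *SLC22A7* (1 of 2), an organic anion transporter of the tubule, at 32.4, 25.9 and 26.4 against 2.17, 0.755 and 0.548 FPKM, and *SLC6A19* (1 of 3), which takes up neutral amino acids, at 25.6, 14.7 and 15.2 against 1.76, 1.01 and 0.766 FPKM. The scaled call of *SLC22A7* was lost without FW33K replicate 2 or 3 (adjusted p up to 0.0113), and that of *SLC6A19* in 6 leave-one-out fits (up to 0.0256) and with the replicate number as a block (0.0129). *SLC3A1*, the subunit of the transporter for cystine and basic amino acids, rose from 176, 27.4 and 27.4 to 415, 305 and 286 FPKM, with FW11K replicate 1 between the treatments and an adjusted p up to 0.018 deposited and 0.0132 scaled when 1 library was left out. With replicates averaged, 4 of the 10 markers were lower at an adjusted p under 0.05 on deposited values and 1 after scaling. The summed deposited FPKM of the 10 markers was 683 to 1267 in FW11K and 440 to 512 in FW33K. This sum was not scaled, and as the factors of FW33K were lower, it does not show that the scaled sum fell. All 7 glomerulus genes were lower in each FW33K library than in each FW11K library on deposited values, with sums of 109 to 110 and 32.2 to 36.1 FPKM, as was true of 63.0% of all genes tested, and none passed on both scales. Their scaled median was -0.49. The part of cell makeup in the changes of tubule genes was not tested.

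Markers of blood and immune cells gave falls and no rises on both scales, in all 8 tested myeloid, 5 of 14 lymphoid and 2 of 8 erythroid genes. The full lists hold 24, 29 and 23 symbols, and the members not named in the study's table were not counted. The 8 myeloid markers fell with and without FW11K replicate 1, with median log2 changes of -2.86 and -1.92, and with replicates averaged all 8 passed an adjusted p under 0.05 on deposited values and none did after scaling. *MPEG1*, the pore-forming protein of macrophages, was at 59.1, 114 and 110 against 11.9, 10.05 and 9.14 FPKM. *CYBA*, a subunit of the phagocyte oxidase, was at 232, 549 and 555 against 41.5, 64.4 and 60.9 FPKM, or 392 ± 226 against 52.1 ± 15.0 FPKM (SD, n = 2), with a scaled log2 change of -1.93 ± 0.27. Its partners *CYBB* and *NCF1*, the transcription factor *SPI1* (2 of 2), the lipoxygenase *ALOX5* and the receptor *PTAFR* fell with it. The scavenger receptor *MARCO*, at 21.2, 151 and 144 against 8.24, 5.77 and 5.90 FPKM, held the least well, with a scaled adjusted p of 0.00901 that became 0.0156 with the replicate block and up to 0.0426 without 1 library. The summed myeloid FPKM was 889, 1943 and 1958 in FW11K and 162 to 262 in FW33K, so FW11K replicate 1 lay below its fellows and above every FW33K library.

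Of 14 lymphoid genes 5 fell on both scales and 12 on deposited values, with medians of -3.23 and -2.37. The scaled median was only -0.29 from replicate 1 and -3.12 from replicates 2 and 3, so the change was far larger in the near-identical libraries. *CORO1A*, an actin regulator of leukocytes, was at 328, 784 and 805 against 57.3, 76.2 and 72.2 FPKM, and *PTPN7*, *BLNK* and *PRF1* (2 of 5), which encode a phosphatase, a B-cell adaptor and perforin, fell too. The list holds 7 copies of *IGKC*, the immunoglobulin kappa constant region, which were at 54.0 to 129 FPKM in FW11K replicate 1, 877 to 1567 FPKM in replicates 2 and 3 and 27.2 to 68.1 FPKM in FW33K. Only *IGKC* (9 of 24) passed on both scales, and its scaled adjusted p of 0.00982 became 0.018 with the replicate block and as much as 0.0459 without 1 library. The lymphoid sum was accordingly 1119, 10180 and 9541 FPKM in FW11K and 332 to 485 FPKM in FW33K. Without FW11K replicate 1, 12 lymphoid genes fell on both scales. With replicates averaged, 8 were lower at an adjusted p under 0.05 on deposited values and none after scaling.

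Of 8 erythroid genes 2 fell on both scales and 6 on deposited values, with medians of -2.45 and -1.53, and 3 fell on both scales without FW11K replicate 1 as well as with the replicate block. *UROD*, an enzyme of heme synthesis, was at 75.3, 159 and 165 against 11.7, 33.6 and 31.6 FPKM, and *LMO2*, a factor of blood-cell development, at 18.1, 48.7 and 52.3 against 3.85, 5.90 and 5.86 FPKM. In leave-one-out fits the adjusted p of *UROD* reached 0.0107 deposited and 0.0253 scaled, and the scaled one of *LMO2* 0.0104 without FW11K replicate 2. The band 3 anion exchanger *SLC4A1* (1 of 2), of red cells, was at 109, 153 and 156 against 2.63, 62.2 and 59.9 FPKM and did not pass on either scale, and its FW33K replicate 1 lay more than 20-fold below the other FW33K libraries. The erythroid sum was 605 to 788 FPKM in FW11K and 66.3, 230 and 223 FPKM in FW33K. With replicates averaged, 5 erythroid genes were lower at an adjusted p under 0.05 on deposited values and none after scaling.

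Of 14 cell cycle genes 8 fell and none rose on both scales, with medians of -2.67 and -1.92. The falls numbered 9 without FW11K replicate 1 and 6 with the replicate number as a block. With replicates averaged, 8 were lower at an adjusted p under 0.05 on deposited values and none after scaling. *CDK1*, the kinase that drives entry into mitosis, was at 42.5, 87.4 and 85.4 against 5.79, 7.74 and 7.61 FPKM. Its subunit *CKS2* was at 44.4, 96.2 and 100 against 3.88, 10.6 and 6.97 FPKM. *CDCA8*, *ANLN*, *CENPN*, *RRM1* (2 of 2) and 2 copies of *ASPM* were the others that fell. *CHEK1* did not pass on either scale. The linker histone *HIST1H1T* fell from 150, 234 and 229 to 3.94, 25.6 and 23.6 FPKM.

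In antigen presentation 7 of 9 members fell and 1, the *CALR3* copy above, rose, with medians of -3.56 and -2.61. The 7 were 5 copies of *PSMB8*, the immunoproteasome subunit that replaces a constitutive one under interferon, and 2 of *TAPBP*, tapasin, which loads peptides onto class I molecules. Since copies can share reads, they count as 2 symbols. With replicates averaged, 7 members were lower and 1 higher at an adjusted p under 0.05 on deposited values, and none passed after scaling. *PSMB8* (2 of 10) was at 146, 329 and 351 against 21.0, 16.6 and 18.8 FPKM, a scaled log2 change of -2.75 ± 0.37. Of 5 interferon response genes, including *STAT2* and *IRF3*, 4 passed on deposited values and none after scaling. The marker sums of myeloid, lymphoid and erythroid cells moved in the same direction as the cell cycle and antigen presentation lists, and their part in these lists was not tested.

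**Figure D4:**
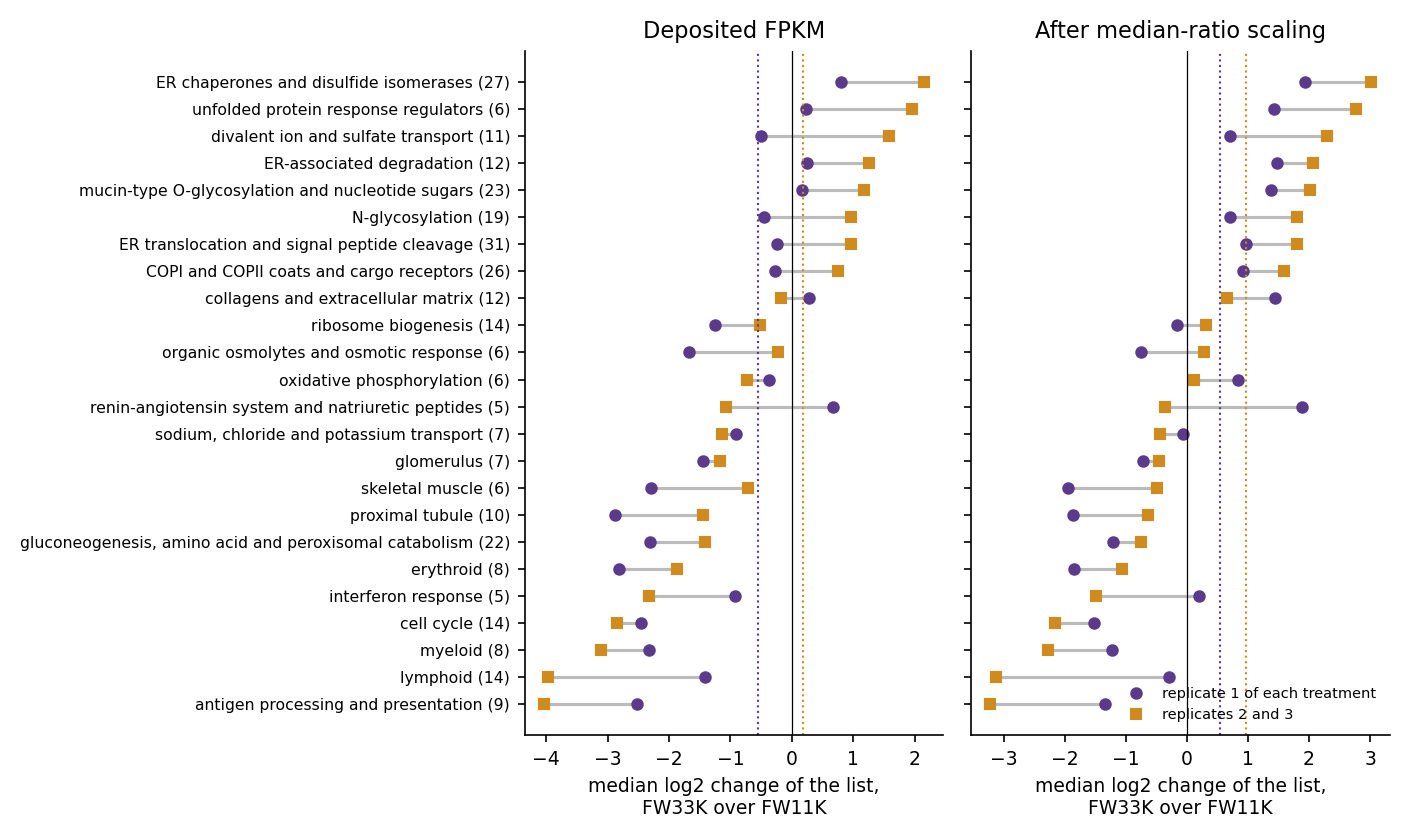
Median log2 change from FW11K to FW33K of each gene list with at least 5 tested members (the number in brackets), on deposited values (left) and after scaling (right), from replicate 1 alone (circles) and from the mean of replicates 2 and 3 (squares). Dotted lines mark the medians of all genes with a symbol, 0.54 and 0.97 after scaling, where the chaperone list stands at 1.94 and 3.01.

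For some genes the step from 11 to 33 g/L differed from the step from 0 to 11 g/L. The limma contrast of the 2 steps, which share the FW11K libraries, was more positive for the later step in 81 genes (0.522%) and more negative in 214 (1.38%) on both scales. On deposited values it passed in 334 genes (2.15%) and after scaling in 1216 (7.84%). With replicates 2 and 3 averaged it passed in none on either scale (1405 and 2027 at an unadjusted p under 0.05). These counts went down to 2 and 56 without FW11K replicate 3, to 3 and 57 without FW11K replicate 2, and up to 2369 and 4659 without FW11K replicate 1. On deposited values they were 42 and 44 without FW00K replicate 3 or 2, 20 and 63 without FW33K replicate 3 or 2, 109 and 123 without SW33K replicate 3 or 2, and 1188 without SW33K replicate 1. With the replicate number as a block the deposited count was 911.

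Among the 214 (1.38% of all genes tested) were 7 of 9 antigen presentation genes, a list with only 3 distinct symbols. There were also 4 of 8 myeloid, 3 of 14 cell cycle, 2 of 8 erythroid and 2 of 14 lymphoid genes. The interferon (of 5), osmolyte (of 6), proximal tubule (of 10) and interrenal (of 1) lists gave 1 each. In the osmolyte and proximal tubule lists this was the same gene, *MIOX*. The share among all genes with a symbol was not computed. *UROD* was at 29.8, 29.3 and 30.1 FPKM at 0 g/L, 75.3, 159 and 165 FPKM at 11 g/L and 11.7, 33.6 and 31.6 FPKM at 33 g/L. All 3 FW11K libraries lay above the other 6. *CYBA* was at 233, 254 and 258 FPKM at 0 g/L, before the 232, 549 and 555 FPKM at 11 g/L, so the higher level was in replicates 2 and 3 and not in replicate 1. *CDK1* likewise stood at 41.4, 18.1 and 18.8 FPKM at 0 g/L against 42.5 FPKM in FW11K replicate 1 and 87.4 and 85.4 FPKM in replicates 2 and 3. For *PSMB8* (2 of 10) the values at 0 g/L were 69.7, 134 and 141 FPKM, below the 146, 329 and 351 FPKM at 11 g/L in each replicate number. *PDIA4*, in contrast, was at 45.7, 64.3 and 64.0 FPKM at 0 g/L and 57.0 to 78.5 FPKM at 11 g/L, so the libraries at these salinities overlapped, and it was at 506 to 633 FPKM at 33 g/L. Its contrast was 2.92 ± 0.53 on deposited values with a limma adjusted p of 0.00784, and 3.51 ± 0.80 after scaling with 0.0120. *MIOX* had a contrast of -8.18 ± 0.84 deposited and -8.24 ± 0.71 scaled, with adjusted p of 0.000814 and 0.0003, after 152 to 189 FPKM at 0 g/L and 184 to 258 FPKM at 11 g/L.

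**Figure D5:**
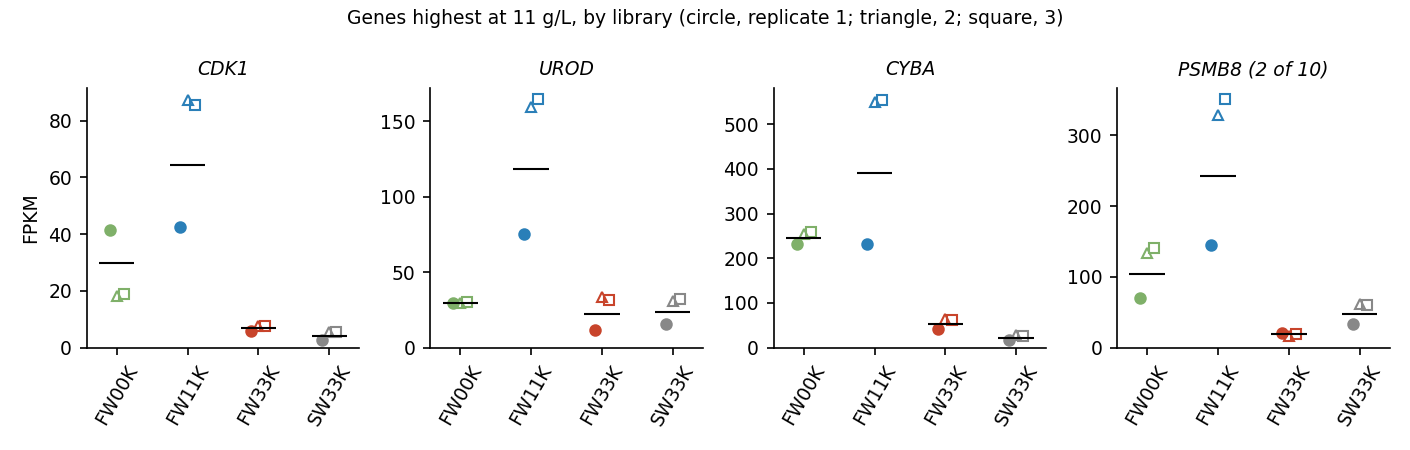
Deposited FPKM of *CDK1*, *UROD*, *CYBA* and *PSMB8* (2 of 10) in each of the 12 libraries, by treatment, with horizontal bars for the mean of replicate 1 and the average of replicates 2 and 3. The mean is highest in FW11K for all 4 genes, and for *CDK1* and *CYBA* FW11K replicate 1 lies at the level of a FW00K library.

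Few genes of organic osmolytes and of ion transport could be counted, 6 for a list of 27 symbols and 7 for a list of 38. Of 6 osmolyte genes 2 rose, 1 fell and 3 did not pass, with medians of -0.71 and -0.12. Beside *MIOX*, *CDO1*, cysteine dioxygenase at the head of taurine synthesis, rose from 117, 25.5 and 25.6 to 386, 382 and 358 FPKM, and *GNMT*, which methylates glycine, from 168, 80.3 and 76.5 to 205, 334 and 305 FPKM. The deposited adjusted p of *GNMT* reached 0.0312 without 1 library. Of 7 genes of sodium, chloride and potassium transport 1 rose, *SLC4A2* (3 of 3), a chloride and bicarbonate exchanger, at 22.1, 12.8 and 12.5 against 26.1, 39.5 and 37.2 FPKM, and its deposited adjusted p of 0.0074 went up to 0.0421 without 1 library. The distal cotransporters *SLC12A3* and *SLC12A1* were at 36.4, 153 and 156 against 21.8, 33.0 and 31.8 FPKM and at 19.5, 6.75 and 7.73 against 7.90, 21.6 and 20.6 FPKM, and neither passed. *ATP1B1* (2 of 2), the beta subunit of the sodium pump, was at 651, 407 and 405 against 119, 164 and 149 FPKM and passed on deposited values only, with adjusted p of 0.00521 and 0.0474.

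Of 11 genes of divalent ion and sulfate transport 1 rose on both scales and 6 were higher after scaling, but 5 rose on both scales without FW11K replicate 1. The 11 genes hold only 8 distinct symbols, and the 6 only 4. On deposited values the list's median was -0.51 from replicate 1 and 1.58 from replicates 2 and 3. Averaging replicates 2 and 3 left 1 gene higher at an adjusted p under 0.05 on deposited values and none after scaling. The gene that rose on both scales in the test of all libraries was *SLC8A2* (2 of 2), a sodium and calcium exchanger. It was at 46.0, 10.6 and 11.8 against 122, 216 and 208 FPKM. Its scaled log2 change was 4.17 ± 0.53. *AVPR2* (1 of 2), the vasopressin receptor of the renal tubule, rose from 4.88, 1.33 and 1.09 to 16.6, 21.4 and 21.7 FPKM. In the renin-angiotensin list 2 of 5 rose. Averaging replicates 2 and 3 left none higher and 1 lower at an adjusted p under 0.05 on deposited values, and none after scaling. *ENPEP*, which trims angiotensin II, was at 40.1, 2.86 and 3.35 against 68.3, 65.4 and 61.0 FPKM, and *XPNPEP1*, an aminopeptidase, at 49.2, 35.7 and 34.9 against 78.7, 143 and 135 FPKM. FW11K replicate 1 of *ENPEP* lay between the treatments, and its calls were lost in 5 leave-one-out fits on each scale (adjusted p up to 0.0304 and 0.0232), as was the deposited call of *XPNPEP1* in 4 (up to 0.0155). *ACE*, which makes angiotensin II, was at 67.2, 24.4 and 24.0 against 8.09, 6.93 and 6.55 FPKM and passed on deposited values only, where it did not pass without any 1 of the 6 libraries (adjusted p up to 0.0173). Of 12 matrix genes 5 rose, *HAS2*, *PI16*, the hyaluronidase *HYAL2* (2 of 2), the laminin chain *LAMA5* and *POSTN* (2 of 2), periostin. The collagens *COL1A1* (both copies) and *COL1A2* did not pass on either scale.

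Of the remaining genes from the tables of the study that passed on both scales, *MAT2A* (1 of 2), which makes the methyl donor S-adenosylmethionine, rose from 131, 91.8 and 92.8 to 788, 987 and 939 FPKM. The growth factor *PDGFB* (1 of 2) rose from 0.640, 1.39 and 1.26 to 16.4, 11.8 and 11.1 FPKM. Both also passed an adjusted p under 0.05 on both scales with replicates averaged (scaled 0.0466 and 0.0360). *APOE* (2 of 2), the lipid carrier, rose from 0, 1.37 and 1.28 to 5.70, 9.52 and 9.38 FPKM, where the 0 is the listed value of FW11K replicate 1. *CYP4F2*, which hydroxylates fatty acids, fell from 144, 212 and 215 to 26.2, 62.2 and 57.0 FPKM, and its scaled adjusted p of 0.00733 became 0.0110 with the replicate block and up to 0.0340 without 1 library. The heme oxygenase *HMOX1* (2 of 2) fell from 12.6, 52.2 and 52.5 to 3.49 to 3.87 FPKM, with a scaled adjusted p up to 0.0240 without 1 library. The kinase *PTK2B* (2 of 2) fell from 23.3, 37.2 and 38.4 to 5.19, 7.98 and 7.02 FPKM. *SLC7A1* (1 of 2), a carrier of basic amino acids, fell from 3.69, 6.51 and 6.58 to 0.937, 1.11 and 1.12 FPKM, with adjusted p up to 0.0181 deposited and 0.0318 scaled without 1 library.

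The genes that passed on both scales at an adjusted p under 0.05 with replicates 2 and 3 averaged were 35 higher, 30 of them with a symbol, and 4 lower, *MIOX*, *ABCA12* and 2 without a symbol. Some of these are named here after their values were seen. ENSGACG00000004242 had the lowest scaled adjusted p of that test, 0.00924, at 0.669, 0.421 and 0.375 against 34.8, 80.1 and 75.9 FPKM. *FAM65A* was at 6.57, 6.48 and 6.36 against 31.8, 49.6 and 46.5 FPKM, with FW11K libraries within 0.216 FPKM of each other. *CSRP2*, a LIM-domain protein of smooth muscle, was at 23.4, 18.2 and 18.4 against 110, 134 and 127 FPKM. *RASD1* (2 of 2), a Ras-related GTPase, was at 0, 0.214 and 0.119 against 6.72, 13.1 and 12.1 FPKM. *NUCB2* (2 of 2), the precursor of nesfatin, was at 24.0, 27.8 and 28.7 against 95.2, 115 and 110 FPKM. In each of these the spread within FW11K was small beside the distance to FW33K, and FW33K replicate 1 was the lowest of its treatment.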

How the data were processed

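Kidney RNA was sequenced in 12 libraries, 3 for each of 4 treatments, of which 6 were compared here. The authors discarded reads with any base of quality below 20, trimmed the others from 100 to 75 bases, aligned them with TopHat2 2.0.3 to BROADS1 with polymorphic sites masked (2 mismatches allowed for freshwater fish, 3 for saltwater fish) and deposited FPKM values from Cufflinks 2.0.2. FPKM was analysed as log2(FPKM + 1) with limma 3.58.1 in R 4.3.3 (lmFit, eBayes with trend), all 12 libraries in 1 fit, for genes averaging 1 FPKM or more, with Benjamini-Hochberg adjustment over the 15503 genes tested and a threshold of adjusted p under 0.01. The same fit was repeated on median-ratio scaled values. Changes are differences of log2(FPKM + 1), which understates those of low genes.

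The groups came from the labels. Same-numbered FW11K and FW33K libraries deviated together from their group means (r of 0.247, 0.379 and 0.264). The other pairs of libraries gave r of -0.269 to 0.0755. Neither the labels nor the methods of the study pair fish between treatments, and the main fit held no pairing. The labels name no batch, and the methods of the study say that 4 samples shared a lane without saying which. A fit with the replicate number as a block was an alternative, beside other scalings, filters, pseudocounts, sets of libraries, leaving out each library and averaging replicates 2 and 3. Averaging was chosen after the values were seen.

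The members of the gene lists were chosen with earlier results of these data known. Symbols came from the supplementary table of the study, of which all 1844 identifiers were found in the deposited table, 1379 with a symbol. The genes named were, among those called in the same direction on both scales without overlap of libraries, the 12 with a symbol that rose and the 12 that fell most after scaling and the 2 without a symbol each way. With no condition on overlap, up to 2 called genes each way from each list and the called genes in the tables of the study were added, as were the 3 most abundant in each treatment and *SLC12A1*, *SLC12A3*, *ATP1B1*, *MIOX*, *HAS2* and *ACE*. Other list members are given with their counts. Promoter motifs were planned and not run, since the reference table matched 0 of the identifiers.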

Additional observations from a re-analysis of the deposited data

How the results depend on the processing

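The deposited count of 3898 genes stayed within 1.5 times under a pseudocount of 0.1 (4095), no filter (3377), a mean of at least 5 FPKM (3356), the 9 freshwater libraries (5120) and the replicate block (5259). The scaled count of 2253 did so under these (2214, 2101, 2071, 1583 and 2405), quantile normalization (1932, 781 lower) and scaling to the FPKM sum without the 100 most abundant genes (2227). Those scalings lowered the deposited count to 1932 and 2227, and only the 6 libraries gave 2542 deposited and 421 scaled. With replicates 2 and 3 averaged the counts were 49 and 1, at adjusted p under 0.05 935 and 59, without FW11K replicate 1 1303 and 0, with only the freshwater fish 5 and 7, and with only both groups 0 and 0 (4902 and 2049 at an unadjusted p under 0.05). At adjusted p under 0.05 all libraries gave 7718 and 4790. Leaving out 1 library gave 1059 to 6502 deposited, the highest without SW33K replicate 1, and 792 to 5157 scaled. The scaled count was 945 and 881 without FW33K replicate 2 or 3, and the deposited count 1652, 2168 and 1629 without FW33K replicate 1, 2 or 3.

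The count for the difference of steps, 334 deposited, was 1117 under quantile normalization, 1414 with the scaling to the FPKM sum, 911 with the replicate block, 2004 at adjusted p under 0.05, and with replicates averaged 0 (6 at adjusted p under 0.05, 234 without FW11K replicate 1, 0 with only the freshwater fish). After scaling, 1216 became 591 with the 9 freshwater libraries, 3828 at adjusted p under 0.05 and 0 with replicates averaged, at adjusted p under 0.05, with only the freshwater fish and without FW11K replicate 1 alike. Leaving out 1 library gave 2 to 2369 deposited and 56 to 4659 scaled. The cause was not tested.

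For the named genes 4156 alternative values were computed, of which 3281 kept direction and side of the threshold, 863 lost the call, 12 gained it and 0 reversed. Of 148 calls of a named gene on a scale, 109 stood without any 1 of the 12 libraries. The replicate block took away only the scaled calls of *SLC16A4*, *IGKC* (9 of 24), *MARCO*, *CYP4F2* and *SLC6A19* (1 of 3). Single list members outside the naming rule were not followed through these fits.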

Other observations

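Lists that touch other functions gave at most 2 calls each on both scales. In ribosome biogenesis 1 of 14 genes fell, *NOP58*, a core protein of small nucleolar particles, from 83.1, 125 and 128 FPKM at 11 g/L to 19.6, 35.1 and 34.1 FPKM at 33 g/L. Its scaled adjusted p of 0.0028 reached 0.0163 and its deposited one 0.0119 in fits that left out 1 library. The list's median log2 change was -0.72 deposited and 0.23 scaled, of opposite sign on the scales. In oxidative phosphorylation 2 of 6 fell, *COX6A2*, from 3.68, 15.0 and 15.3 to 0.665, 0.406 and 0.684 FPKM (scaled adjusted p up to 0.0113 without 1 library), and *ATP5A1* (2 of 2), from 19.01, 32.0 and 32.6 to 5.24, 7.11 and 6.51 FPKM. *MSMO1*, of cholesterol synthesis, rose from 1.81, 7.94 and 8.12 to 21.6, 21.5 and 21.0 FPKM and was the only 1 of 3 sterol genes to pass on both scales, with a deposited adjusted p up to 0.0111 without 1 library.

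The summed FPKM of 8 skeletal muscle genes was 27.8, 7.08 and 7.98 at 11 g/L and 0.863 to 1.49 at 33 g/L. Of these, 6 were tested and none passed on either scale. Of 3 genes of endothelium and smooth muscle none passed on both scales, and the plasma protein gene *AHSG* was at 0.225 to 0.795 FPKM at 11 g/L and 2.13 to 2.59 FPKM at 33 g/L.

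The unnamed genes with the steepest falls were ENSGACG00000020917, at 68.2, 93.3 and 93.0 against 1.31, 1.18 and 0.938 FPKM, and ENSGACG00000014505, at 124, 82.1 and 84.2 against 5.44, 1.23 and 0.955 FPKM.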
